A study of Mus musculus with 14 samples.

Results

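The Fgf, Pdgf and Hgf ligands and their receptors were examined in differentiating C2C12 cells, an established mouse myoblast line that fuses into myotubes after serum is withdrawn. The members were taken by gene symbol from the deposited expression table, as every Fgf ligand, Fgfr1 to Fgfr4, Fgfrl1, Pdgfa to Pdgfd, Pdgfra, Pdgfrb, Hgf and Met. They were 35 of the 24016 transcripts in the table, 22 of them Fgf ligands, and the rule itself used no expression value. All 35 were annotated as protein coding.

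Fgf and Pdgf ligands and hepatocyte growth factor (Hgf) signal through receptor tyrosine kinases, which pass the signal through adaptors to Ras, Raf, Mek and Erk. Most Fgfs are secreted and bind their receptors together with heparan sulphate, the endocrine Fgfs act at a distance through Klotho coreceptors, and the Fgf homologous factors stay inside the cell and bind sodium channels. In muscle, Fgf2 and Hgf are known as signals that keep satellite cells and myoblasts dividing, and PDGF receptors are well known on fibroblasts and mural cells.

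The cells carried a control siRNA (siCtrl) or a pool of siRNAs against Klf5 (siKlf5), a Krüppel-like transcription factor, and were harvested on days 0, 1, 2 and 3 after growth medium was replaced with differentiation medium containing 2% horse serum. Poly(A) RNA was sequenced from 1 library per siRNA and day, 8 libraries in all, and all of them came from the same line. Nothing in the labels ties a library to a separate culture, so the tests measure only the spread among these 8 libraries. Between 7850497 reads (siCtrl, day 1) and 20301505 reads (siCtrl, day 2) lay on transcripts. Klf5 ranged from 223.8 FPKM on day 0 to 933.1 on day 3 in siCtrl cells, and siKlf5 cells held 15.7% of the control level on day 0 and 22.7% on day 3. The labelled cell type was checked with Myog, a myogenic transcription factor, and Myh3, embryonic myosin heavy chain, which rose from day 0 to day 3 by 2.17 and 4.77 on the log2 scale (limma, adjusted p = 1.6e-05 and 2.4e-07).

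The stretches of 250 bases upstream of the annotated transcript starts of 3 members are shown here, a choice made after the values were seen. Fgfr3 and Fgfrl1 had the largest mean differences between siKlf5 and siCtrl in size among the 20 members tested, none of which passed the test. Fgf21 had the largest ratio on a single day on the log2(FPKM + 1) scale. They were read 5′ to 3′ on the strand of the gene from the mouse genome (mm9), at chr5:109122998-109123247 on the plus strand for Fgfrl1, chr5:34064123-34064372 on the plus strand for Fgfr3 and chr7:52870861-52871110 on the minus strand for Fgf21. Whether these stretches overlap an annotated exon of another gene was not examined. Capitals mark matches on either strand to the Klf motif CCNCNCCC in the Fgfr genes and to the C/EBP-Atf composite element TGATGNAA in Fgf21.
Fgfrl1: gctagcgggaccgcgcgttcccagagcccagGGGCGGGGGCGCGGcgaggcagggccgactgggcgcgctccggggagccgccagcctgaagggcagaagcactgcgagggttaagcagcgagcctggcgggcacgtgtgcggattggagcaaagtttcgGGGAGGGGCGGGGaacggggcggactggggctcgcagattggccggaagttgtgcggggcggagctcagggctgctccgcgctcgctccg
Fgfr3: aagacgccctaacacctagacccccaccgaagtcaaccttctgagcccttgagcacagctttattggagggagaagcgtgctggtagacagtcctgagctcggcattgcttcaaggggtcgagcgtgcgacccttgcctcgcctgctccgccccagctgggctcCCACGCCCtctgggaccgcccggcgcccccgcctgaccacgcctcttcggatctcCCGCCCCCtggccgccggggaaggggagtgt
Fgf21: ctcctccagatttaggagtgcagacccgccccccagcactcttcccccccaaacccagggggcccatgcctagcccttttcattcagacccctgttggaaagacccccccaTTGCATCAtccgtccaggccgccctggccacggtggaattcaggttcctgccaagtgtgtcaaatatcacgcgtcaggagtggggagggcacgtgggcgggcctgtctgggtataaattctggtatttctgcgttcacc
The Klf motif occurred 4 times upstream of Fgfrl1, with overlapping matches, and 2 times upstream of Fgfr3. It occurred 7 times upstream of Met and of Hgf, 6 times upstream of Fgf5, 4 times upstream of Pdgfa and 1 time upstream of Fgf21 (not in capitals). It occurred upstream of 14 of the 15 members with a mean of at least 10 FPKM (Pdgfd had none), against 52% of 23953 such stretches over all transcripts. The composite element lay 139 bases upstream of Fgf21 and upstream of no other of these 15 members, against 2.92% of all stretches. The E-box CANNTG, the motif of MyoD and its relatives, occurred upstream of 7 of the 15, against 62.9% of all stretches. The shares over all stretches were taken over transcripts of any level, and none was computed for transcripts as abundant as these 15. The counts therefore do not show that a motif is enriched in these genes. These matches describe letters and are not evidence of binding.

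Expression was given as FPKM, fragments per kilobase of exon, on a scale the authors set with a matrix total of 10000000 for each library, which makes the values larger than usual FPKM. The mean FPKM over the 8 libraries was at least 1 for 20 of the 35 members, and 15 of these had a mean of at least 10. Of all transcripts, 59.6% reached a mean of 1. The 15 members under the filter were all Fgf ligands apart from Fgfr2, which reached at most 1.28 FPKM (siCtrl, day 0). Fgf3, Fgf6, Fgf8, Fgf15, Fgf20 and Fgf23 were listed at 0 in all 8 libraries, and Fgf4, Fgf9, Fgf12, Fgf14, Fgf16, Fgf17, Fgf18 and Fgf22 reached at most 1.99 FPKM. A passing member could owe its place to a few libraries: Fgf13 and Fgf1 were each at 0 in at least 1 library.

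Counted by family, the Fgf receptors and the Pdgf ligands had the highest summed levels in every library. The 4 Pdgf ligands summed to between 457.6 and 500.5 FPKM in every library, a narrow range, with Pdgfa highest among them throughout. The 5 Fgf receptor genes summed to between 487.2 and 811.3 FPKM, the 2 Pdgf receptor genes to between 91.3 and 243.5, and Hgf with Met to between 147.4 and 225.0. Among the secreted Fgfs that act locally, the Fgf4 subfamily (Fgf4, Fgf5 and Fgf6) summed to at most 62.2 FPKM, the Fgf1 subfamily (Fgf1 and Fgf2) to at most 35.4 and the Fgf7 subfamily (Fgf3, Fgf7, Fgf10 and Fgf22) to at most 13.4. The intracellular factor Fgf11 and the endocrine ligand Fgf21 were the most abundant Fgf ligand genes by mean level.

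**Figure D1:**
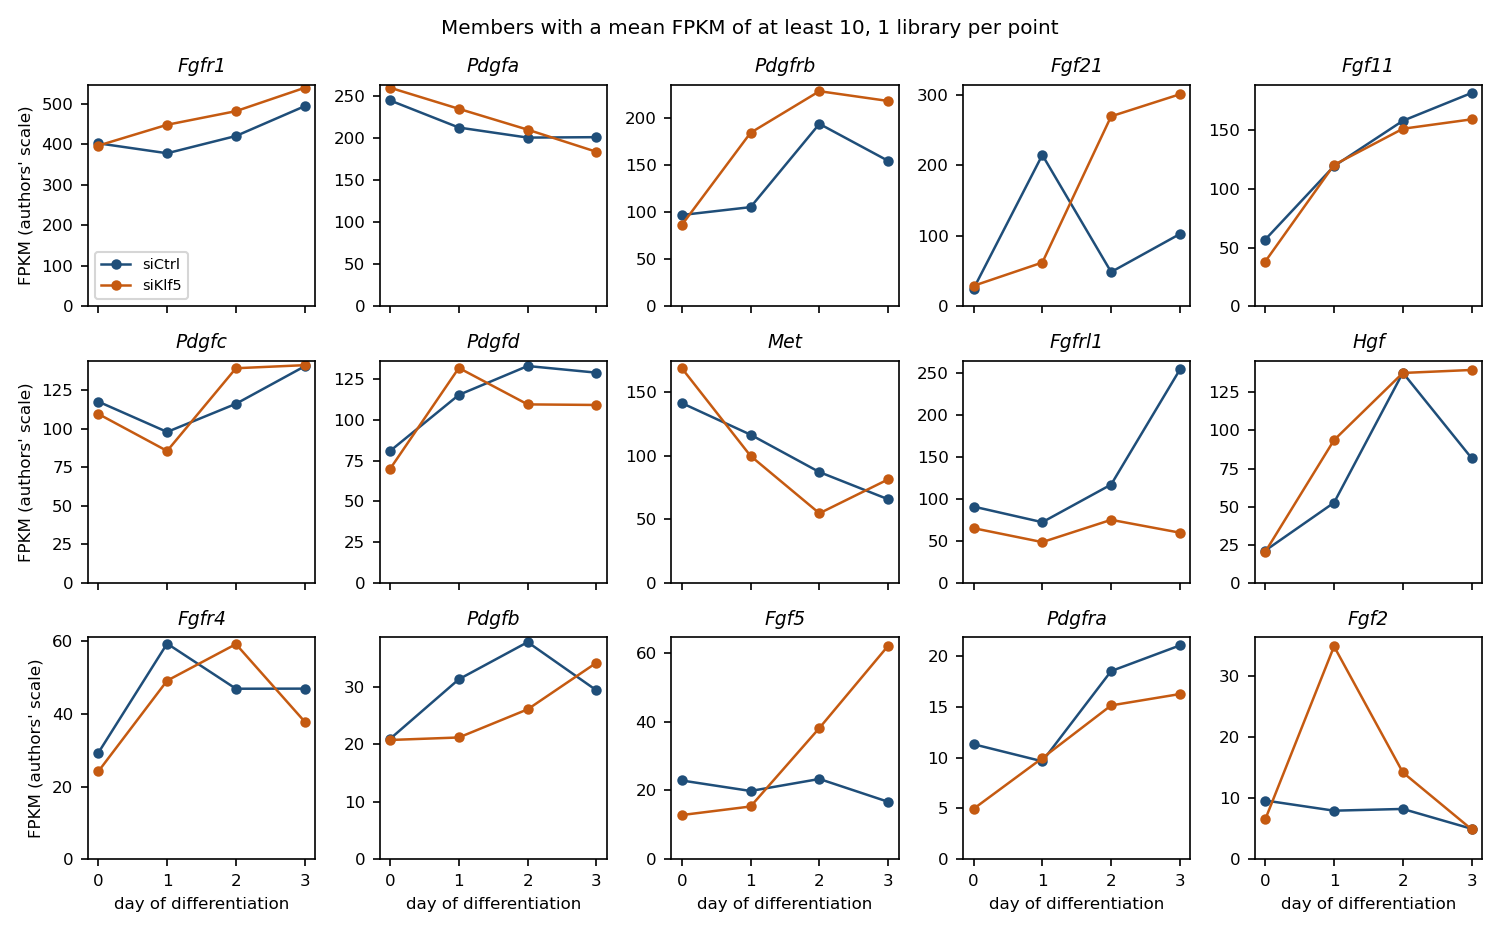
FPKM (vertical axis, linear from 0, each panel with its own range) against day of differentiation for the 15 members with a mean of at least 10 FPKM, with siCtrl libraries in blue and siKlf5 libraries in orange and 1 library per point. Fgf11 climbed from day to day in both series, Hgf was higher and Met lower on day 3 than on day 0 in both, and Fgfrl1 in siCtrl cells reached 254.3 FPKM on day 3 while the siKlf5 library held 59.7.

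The change over differentiation was tested in a limma fit on log2(FPKM + 1) over the 14312 transcripts that passed the filter, with siRNA and day as terms, so that the siCtrl and siKlf5 libraries of a day stand in for replicates. Fold changes are on this scale and understate the change of low genes. From day 0 to day 3, 7 of the 20 tested members rose and 2 fell at an adjusted p under 0.05, against 13% of all transcripts higher and 18% lower. Fgf13, 1 of these 7, passed the filter on low values only through days 2 and 3. The median change of the members was 0.65 on the log2 scale and that of all transcripts was -0.08. Both day 3 libraries lay above both day 0 libraries for 13 members and below them for 3, where 28% and 38.1% of all transcripts did so. Without the 2 libraries of day 2, 3 of the 9 calls remained (Hgf, Fgf11 and Met). By day 1, 4 members had risen (Fgf11, Hgf, Pdgfd and Fgfr4) against 6.76% of all transcripts, and by day 2 the members that had risen were Hgf, Fgf11, Pdgfrb, Pdgfd, Fgfr4 and Fgfr3, against 11.7% of all transcripts, while Met had fallen (12.1% of all transcripts).

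**Figure D2:**
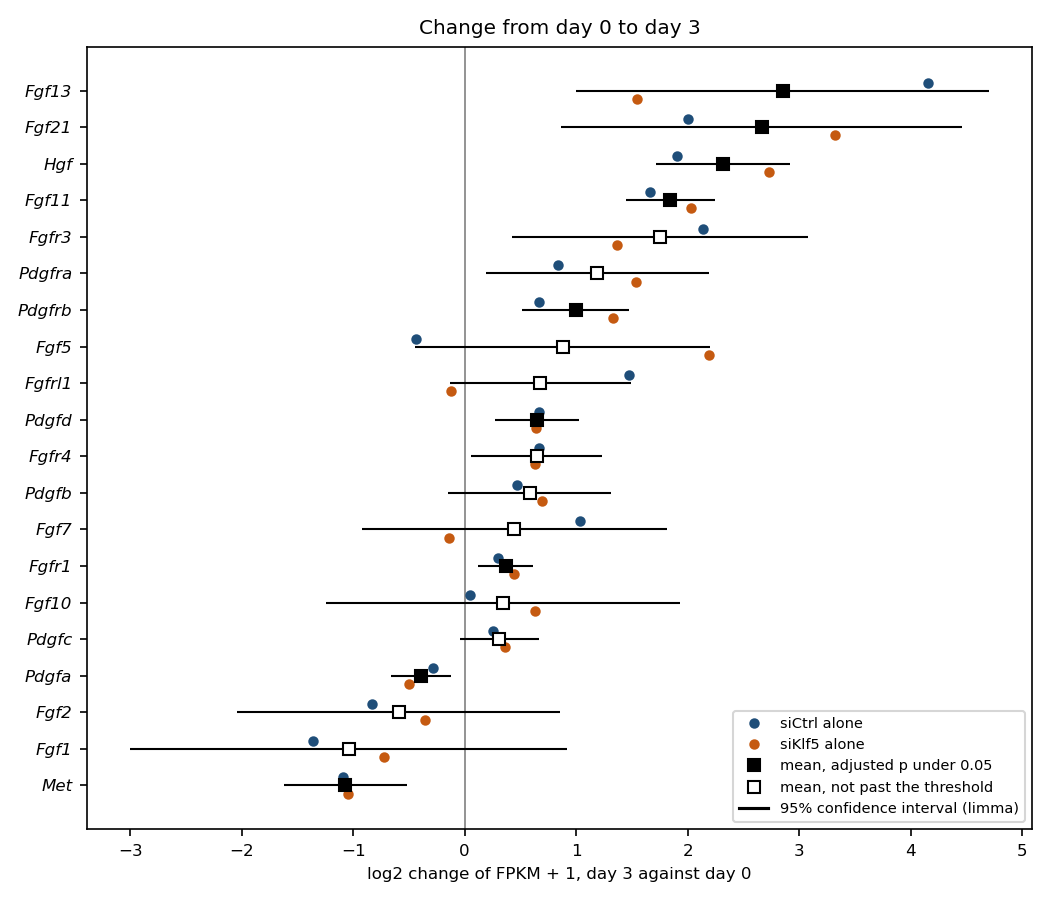
Change in log2(FPKM + 1) from day 0 to day 3 for the 20 tested members, with squares for the mean over both siRNAs (filled where the limma adjusted p was under 0.05), bars for its 95% confidence interval and dots for each siRNA alone. 9 squares are filled, Met and Pdgfa left of 0 and the other 7 right of it, and the dots of Fgf5, Fgfrl1 and Fgf7 lie on opposite sides of 0.

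Among the Fgf genes, Fgf11 rose in both series. This Fgf homologous factor (chr11:69609570-69615218, minus strand, mm9) measured 56.7, 119.2, 157.7 and 181.3 FPKM on days 0 to 3 in siCtrl cells and 38.1, 120.2, 150.9 and 158.9 in siKlf5 cells. Both day 0 libraries were the lowest, both libraries of each later day stood above them, and the order of the days was the same in the 2 series. The rise to day 3 was 1.85 ± 0.17 on the log2 scale (SE, limma, adjusted p = 0.00014), or 3.59-fold. Fgf13, another homologous factor, was at 0, 0.63, 3.70 and 16.8 FPKM in siCtrl cells and at 1.79, 0, 5.37 and 7.17 in siKlf5 cells. It rose by 2.85 ± 0.81 (limma, adjusted p = 0.0285), from at most 8 reads on day 0 to 86 and 32 reads on day 3, and the call was lost with a pseudocount of 0.1 (adjusted p = 0.0771). Fgf13 passed the filter on low values only through days 2 and 3, where it was high, so its rise is a description and supports nothing.

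Fgf21 also rose, but by different courses in the 2 series. It is a secreted endocrine Fgf (chr7:52869260-52870860, minus strand) whose release from muscle is known under cellular stress. It measured 24.8, 214.4, 48.7 and 102.5 FPKM on days 0 to 3 in siCtrl cells and 29.1, 62.1, 269.2 and 300.5 in siKlf5 cells. Both day 0 libraries were the lowest, but the siCtrl series peaked on day 1 and the siKlf5 series on day 3. The rise from day 0 to day 3 was 2.66 ± 0.79 on the log2 scale (limma, adjusted p = 0.033), with 2.00 in siCtrl cells and 3.33 in siKlf5 cells. Its coreceptor gene Klb reached at most 0.98 FPKM in these libraries.

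The other secreted Fgfs did not pass the test over days. Fgf5 (chr5:98683203-98706052, plus strand) measured 22.9, 19.9, 23.4 and 16.7 FPKM in siCtrl cells and 12.8, 15.3, 38.2 and 62.2 in siKlf5 cells. The siCtrl values stayed within a narrow range, and the siKlf5 values of days 2 and 3 lay above all 4 of them. Fgf2, a myoblast mitogen, measured 9.58, 7.91, 8.20 and 4.95 FPKM in siCtrl cells and 6.48, 34.8, 14.2 and 4.86 in siKlf5 cells, on 6 to 32 reads per library over a transcript model of 690 bases. Fgf7, Fgf10 and Fgf1 had means between 1.21 and 6.13 FPKM, with highest values of 12.2, 2.80 and 3.73. Fgf7 lies wholly within the span of a gene on the opposite strand (Fam227b). Reads of both strands were counted on exons, and whether exons of these 2 genes overlap was not examined.

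Fgfr1 dominated the Fgf receptors. It made up between 85.4% (siCtrl, day 1) and 94.1% (siKlf5, day 0) of the summed FPKM of Fgfr1 to Fgfr4. Fgfr1 (chr8:26629231-26686190, plus strand) was the most abundant member, at 402.7, 378.2, 420.8 and 494.5 FPKM in siCtrl cells and 397.1, 448.5, 482.2 and 539.9 in siKlf5 cells. Both day 3 libraries were the highest of their series, and the rise from day 0 was small, 0.37 ± 0.11 on the log2 scale (limma, adjusted p = 0.0317) or 1.29-fold. A transcript of the opposite strand (LOC102633315, mean 46.7 FPKM) overlaps the span of Fgfr1 by 7411 bases, introns included, and whether their exons overlap was not examined.

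Fgfr4, which is known to be expressed in differentiating myoblasts, came after Fgfr1 among the Fgf receptors with a kinase domain. It measured 29.3, 59.4, 46.9 and 47.0 FPKM in siCtrl cells and 24.1, 49.2, 59.2 and 37.9 in siKlf5 cells. The day 0 libraries were the lowest, the rise by day 1 was 1.00 ± 0.26 (limma, adjusted p = 0.0308), and the day 3 estimate of 0.65 ± 0.26 did not pass (adjusted p = 0.0908). Fgfr3 was far lower, at 2.66, 4.27, 19.7 and 15.1 FPKM in siCtrl cells and 0.93, 0.54, 5.39 and 3.99 in siKlf5 cells. Its values of days 2 and 3 lay above those of days 0 and 1 within each siRNA, it had risen by 2.11 ± 0.58 on day 2 (limma, adjusted p = 0.0314), and the day 3 estimate of 1.75 ± 0.58 missed the threshold (adjusted p = 0.0507). Fgfrl1 encodes an Fgf receptor without a kinase domain, and its course is described with the siRNA comparison because the siCtrl and siKlf5 series parted.

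Among the Pdgf genes, the receptor Pdgfrb and the ligand Pdgfd rose and the ligand Pdgfa fell. Pdgfrb (on chromosome 18), the receptor for Pdgfb and Pdgfd, measured 96.9, 105.3, 193.6 and 154.4 FPKM in siCtrl cells and 86.3, 184.2, 228.3 and 217.9 in siKlf5 cells. Both series were highest on day 2, no day 0 library overlapped a day 3 library, and the rise to day 3 was 1.00 ± 0.21 on the log2 scale (limma, adjusted p = 0.008). Pdgfra, the receptor that also takes Pdgfa and Pdgfc, was lower, at 11.3, 9.65, 18.6 and 21.1 FPKM in siCtrl cells and 4.96, 9.97, 15.2 and 16.3 in siKlf5 cells, with an estimate of 1.19 ± 0.44 (limma, adjusted p = 0.0719).

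Pdgfa (chr5:139452929-139470907, minus strand), the most abundant ligand gene by mean level though below Fgf21 in 3 libraries, measured 245.3, 213.0, 201.0 and 201.5 FPKM in siCtrl cells and 260.4, 235.3, 210.5 and 184.1 in siKlf5 cells. The day 0 libraries were the highest of each series, and the fall to day 3 was -0.39 ± 0.12 on the log2 scale (limma, adjusted p = 0.0362). This call was lost when libraries were scaled by median ratios (-0.28, adjusted p = 0.114) or upper quartiles (-0.30, adjusted p = 0.0889), and in the limma-voom fit (-0.35, adjusted p = 0.155). The median change of all transcripts was -0.08 without such scaling and 0.01 with median ratios. Pdgfd measured 80.8, 115.3, 133.0 and 128.9 FPKM in siCtrl cells and 69.8, 131.8, 109.4 and 109.1 in siKlf5 cells, lowest on day 0 in both, and rose by 0.65 ± 0.17 (limma, adjusted p = 0.0179). Pdgfc lay between 85.6 and 141.3 FPKM and Pdgfb between 20.8 and 37.9 FPKM over the 8 libraries. Pdgfc measured 117.6, 97.9, 116.2 and 140.6 FPKM in siCtrl cells and 109.6, 85.6, 139.3 and 141.3 in siKlf5 cells, so that day 1 was lowest in both. Pdgfb measured 21.0, 31.4, 37.9 and 29.4 FPKM in siCtrl cells and 20.8, 21.2, 26.1 and 34.3 in siKlf5 cells, and its day 0 libraries were the lowest of each series. Neither passed the test over days (limma, adjusted p = 0.17 and 0.207).

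Hgf and its receptor gene Met moved in opposite directions. Hgf (chr5:16059719-16125257, plus strand) measured 21.1, 52.6, 137.9 and 81.8 FPKM in siCtrl cells and 20.2, 93.7, 137.8 and 139.7 in siKlf5 cells. All later libraries stood above both day 0 libraries, and the rise to day 3 was 2.32 ± 0.26 on the log2 scale (limma, adjusted p = 0.00039), or 4.98-fold. Met (chr6:17413957-17523980, plus strand) measured 141.4, 116.5, 87.1 and 65.7 FPKM in siCtrl cells and 168.9, 99.8, 54.6 and 81.4 in siKlf5 cells. The day 0 libraries were the highest, and the fall to day 3 was -1.07 ± 0.24 (limma, adjusted p = 0.0105), so that the level of Met on day 0 was 2.10-fold that on day 3. In RNA from whole cultures, fewer cells that express a gene and less of its RNA per cell cannot be told apart.

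The siRNA comparison asked how these genes differed after knockdown of Klf5. Over the 4 days, none of the 20 tested members differed between siKlf5 and siCtrl at an adjusted p under 0.05 (limma), against 0.00699% of all transcripts higher and 0.0629% lower. At an unadjusted p under 0.05 there were 3 members (Fgfrl1, Fgfr3 and Pdgfrb) and 1417 of all transcripts, or 9.9%. A limma-voom fit on the recovered reads called 2 members, Fgfr3 and Fgfrl1, both lower, against 0.349% of all transcripts higher and 1.25% lower. The median difference was 0.01 on the log2 scale for the members and 0.01 for all transcripts. The residual of this fit is the way a difference varies over the days, so a difference that came on late or changed sign counts as error.

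Fgfrl1 (chr5:109123248-109135969, plus strand) had the log2 ratio farthest from 0 on day 3 among members with a mean of at least 10 FPKM. It measured 90.8, 72.2, 117.1 and 254.3 FPKM on days 0 to 3 in siCtrl cells and 65.1, 48.4, 75.0 and 59.7 in siKlf5 cells. The siKlf5 library was the lower of the pair on every day, and the siCtrl library of day 3 was the highest of all 8. The mean difference was -0.94 ± 0.25 on the log2 scale (95% confidence interval -1.51 to -0.36; limma, adjusted p = 0.285), and -0.56 without the day 3 pair. By day the log2 ratio was -0.48, -0.57, -0.64 and -2.07, and on day 3 siKlf5 cells held 23.5% of the siCtrl level, with an exact 95% interval of the log2 ratio for counting error of -2.58 to -1.63. From day 0 to day 3 it changed by 1.48 in siCtrl cells and by -0.12 in siKlf5 cells.

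Fgfr3, whose values are given above, was lower in siKlf5 cells on all 4 days by log2 ratios of -0.92, -1.78, -1.70 and -1.69. The mean difference was -1.52 ± 0.41 (95% confidence interval -2.46 to -0.58; limma, adjusted p = 0.287). It rested on few reads, 22, 23, 278 and 130 over days 0 to 3 in siCtrl cells against 7, 3, 44 and 30 in siKlf5 cells, and the counting interval lay below 0 on days 2 and 3 but not on days 0 and 1. Fgfr3 was lower by over 1.5-fold on all 4 days, as were 0.461% of all transcripts.

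Genes of differentiation and proliferation gave the following values in the same comparison. Myog had an estimate of -0.46 between siKlf5 and siCtrl (limma, unadjusted p = 0.0012, adjusted p = 0.181) and stood at 60.5% of the siCtrl level on day 3. Limma-voom called Myog lower, the 1 call among the 10 muscle genes, against 1.25% of all transcripts. The median estimate of the 10 muscle genes was 0.008. Myh3 (0.06), Ckm (0.05) and Acta1 (0.17) lay above 0, and Myh8 (-0.08) and Tmem8c (-0.28) lay below. Of the 9 proliferation genes, 5 had an unadjusted p under 0.05 (limma), against 9.9% of all transcripts. Of these, Ccnb1 (0.29), Ccna2 (0.24), Mcm5 (0.29) and Pcna (0.20) lay above 0 and Ccnd1 (-0.32) below. The median of the list was 0.20. None of the 9 passed the limma test or the limma-voom test. Mki67, a marker of dividing cells, measured 196.8, 96.8, 89.5 and 38.5 FPKM on days 0 to 3 in siCtrl cells. In siKlf5 cells it measured 250.1, 120.5, 63.5 and 78.9, so that day 2 went the other way. Its estimate over the 4 days was 0.30 (limma, unadjusted p = 0.193). The part of proliferation and differentiation in the differences of Fgfrl1 and Fgfr3 was not tested.

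On single days, between 3 and 4 members were higher and between 3 and 4 were lower in siKlf5 cells by over 1.5-fold. Day 0 had 3 members higher and 4 lower, against 8.18% and 10% of all transcripts. Day 1 had 3 and 4 against 15.6% and 10.3%, day 2 had 3 and 4 against 6.78% and 11.6%, and day 3 had 4 and 3 against 9.9% and 11.6%. Of the 20 members, 4 kept 1 sign on all 4 days, 1 higher (Fgf7) and 3 lower (Fgfrl1, Fgfr3 and Fgf10), where 9.05% and 9.03% of all transcripts did.

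**Figure D3:**
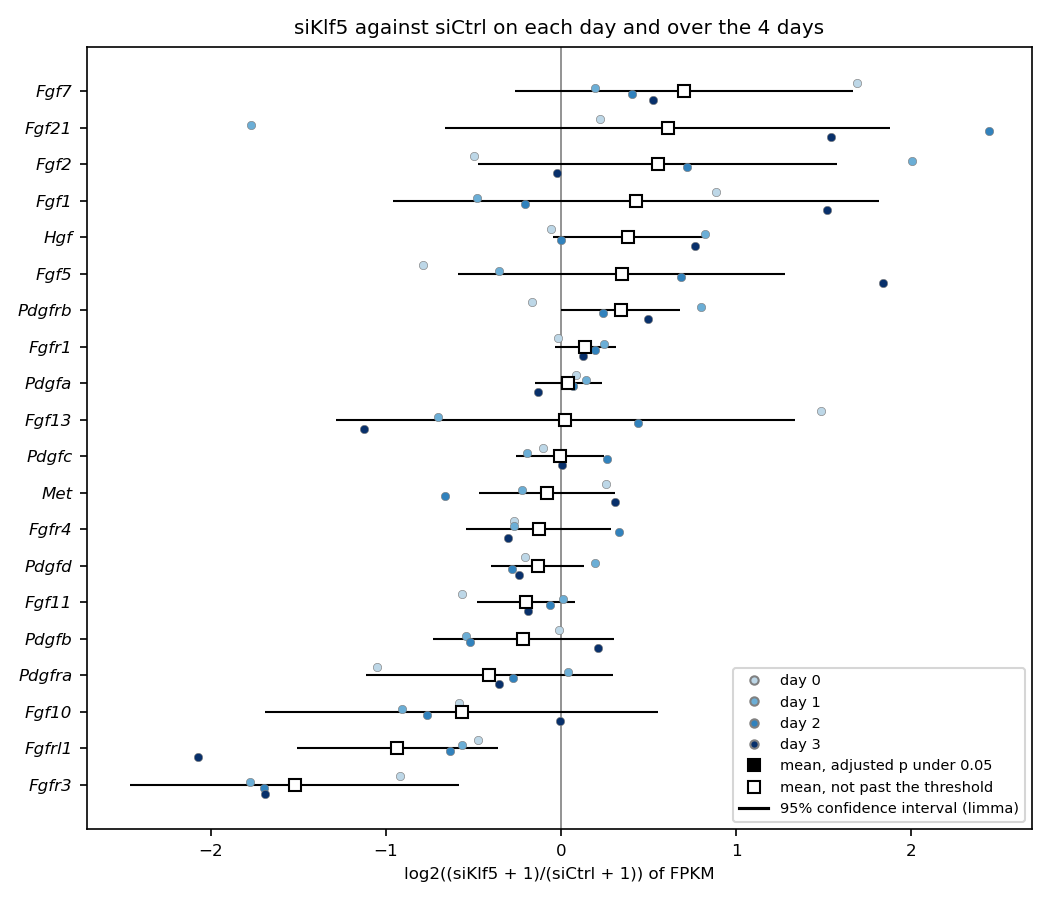
Log2 ratio of siKlf5 to siCtrl (FPKM + 1) for the 20 tested members on each day (dots, darker for later days), with the mean over the 4 days (open squares, none past the limma threshold) and its 95% confidence interval (bars). Fgf21 spans from -1.77 on day 1 to 2.44 on day 2, and the dots of Fgfr3 and Fgfrl1 lie left of 0 on every day.

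Fgf21 changed sides between days. In siKlf5 cells it stood at 29.0% of the siCtrl level on day 1 (log2 ratio -1.77, counting interval -2.81 to -0.87) and was 5.53-fold the control on day 2 (2.44, interval 1.81 to 3.17) and 2.93-fold on day 3 (1.54, interval 0.95 to 2.18). Each of these intervals excludes 0, but with 1 library per point they hold counting error only. Its mean difference over the 4 days was 0.61 (limma, adjusted p = 0.751) and 1.16 in the limma-voom fit. It came to 1.40 without the day 1 pair, 0.30 without the day 3 pair and -0.0031 without the day 2 pair. Fgf5 was 3.73-fold higher in siKlf5 cells on day 3 (log2 ratio 1.84, interval 1.00 to 2.89), after ratios of -0.79, -0.35 and 0.69 on days 0, 1 and 2. Fgf2 had a log2 ratio of 2.01 on day 1, with a counting interval of -0.84 to 7.05.

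Fgf21 is a known target of the integrated stress response, so 11 other genes of that response were set beside it, a list chosen after the values of Fgf21 were seen. On day 1, 9 of the 11 were lower in siKlf5 than in siCtrl cells, 4 of them by over 1.5-fold (10.3% of all transcripts), and on day 2, 10 were higher, 6 of them by over 1.5-fold (6.78% of all transcripts). On day 3, 9 were higher, 3 of them by over 1.5-fold (9.9% of all transcripts). Their median log2 ratio was 0.02, -0.41, 0.60 and 0.17 on days 0 to 3, and that of all transcripts lay between -0.03 and 0.03. Shares of all transcripts on each side without the cutoff were not counted. The 3 genes of the list with the largest ratios on days 1 and 2 were Trib3, a pseudokinase (-1.87 and 1.87), Asns, asparagine synthetase (-1.42 and 1.66), and Chac1, which degrades glutathione (-2.08 and 2.05). Atf4 had -0.24 and 0.48. Going the other way were Ddit3 (0.43) and Slc7a11 (0.03) on day 1, Slc7a11 (-0.14) on day 2, and Slc7a11 (-0.33) and Ppp1r15a (-0.35) on day 3. These genes and Fgf21 were measured in the same libraries, 1 per siRNA and day, so their ratios share any difference between the libraries. Over days the list went the other way from Fgf21, with 7 of the 11 genes lower on day 3 than on day 0 (limma, adjusted p under 0.05), against 18% of all transcripts. Between siKlf5 and siCtrl none of the 11 passed the limma or the limma-voom test over the 4 days. At an unadjusted p under 0.05 (limma) there were 2, against 9.9% of all transcripts. The part of the stress response in the differences of Fgf21 was not tested.

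**Figure D4:**
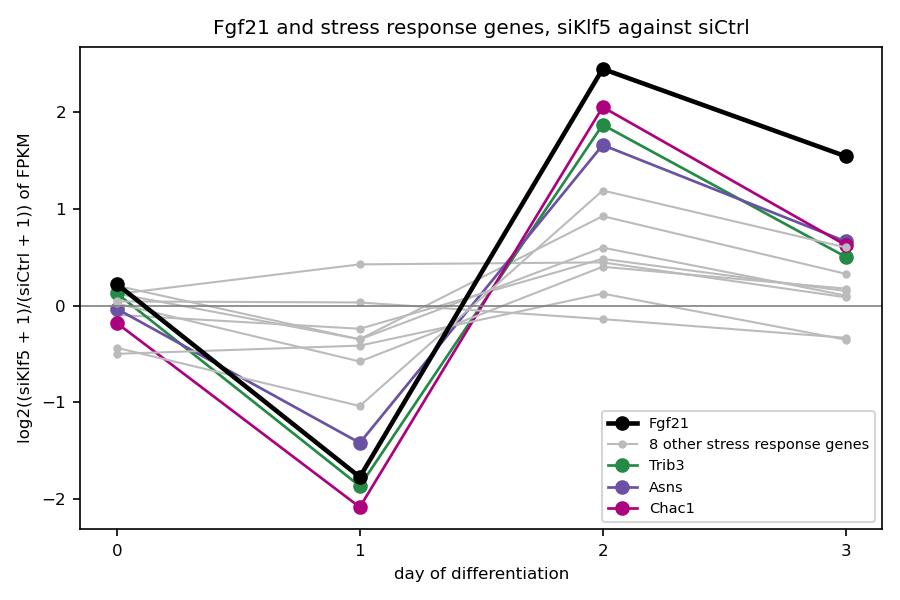
Log2 ratio of siKlf5 to siCtrl (FPKM + 1) on each day for Fgf21 (black), Trib3, Asns and Chac1 (coloured) and the other 8 genes of the stress response list (grey), 1 library per siRNA and day. Fgf21 and the 3 coloured genes lie below 0 on day 1 and above 0 on days 2 and 3.

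Hgf was above the control on days 1 and 3, and Pdgfrb on days 1, 2 and 3. The log2 ratio of Hgf was 0.82 on day 1 (interval 0.16 to 1.53) and 0.77 on day 3 (interval 0.33 to 1.22), while the siCtrl and siKlf5 levels of day 2 were 137.9 and 137.8 FPKM. Pdgfrb had ratios of -0.17 on day 0, 0.80 on day 1 (interval 0.48 to 1.14), 0.24 on day 2 (interval 0.05 to 0.42) and 0.49 on day 3 (interval 0.27 to 0.73), and its mean difference was 0.34 (limma, unadjusted p = 0.0492, adjusted p = 0.503) and 0.19 without the day 1 pair. Met was lower on day 2 (-0.66, interval -0.99 to -0.36) and had ratios of 0.25, -0.22 and 0.31 on the other days. Fgfr1, Pdgfa, Pdgfc and Fgf11 stayed within 1.5-fold of the control on every day, and for Fgfr1 the confidence interval of the mean difference ran from -0.04 to 0.31.

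The genes that carry the receptor signal were taken from lists written from general knowledge. The counts of all 5 lists stand against the 13% of all transcripts that rose and the 18% that fell from day 0 to day 3. Of the 21 receptor adaptors and early effectors tested, Gab2, a docking protein, rose (1.11, limma, adjusted p = 0.0091) and Crk, an adaptor, fell (-0.62, adjusted p = 0.0065) from day 0 to day 3, with a median change of 0.03 for the list. Of 15 Ras, Raf, Mek and Erk genes, 3 rose and 1 fell, with a median of -0.12. These were the scaffold Ksr1 (1.59), the kinase Araf (1.07) and Rras (0.91), a small GTPase related to Ras, and the Ras relative Rras2 (-0.50), with limma adjusted p values from 0.00085 to 0.0264. The summed level of these 15 genes lay between 3592 and 4219 FPKM in all 8 libraries.

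Genes induced by Erk signalling, which include its feedback inhibitors, went both ways. Of the 17 tested, 2 rose and 5 fell from day 0 to day 3, with a median of -0.04. Spry1, a feedback inhibitor of receptor tyrosine kinases, measured 24.8, 88.8, 188 and 198 FPKM in siCtrl cells and 37.1, 132, 206 and 169 in siKlf5 cells, and rose by 2.56 ± 0.21 (limma, adjusted p = 7.5e-05). All 6 later libraries stood above both day 0 libraries. The other gene that rose was Flrt2 (0.81), which encodes a membrane protein. The genes that fell were the transcription factor Etv4 (-1.32), the Erk phosphatases Dusp4 (-1.28) and Dusp5 (-1.12), Spred2 (-0.89) and Errfi1 (-0.43), an inhibitor of Egf receptors (limma, adjusted p at most 0.0452). Spry2, Spry4, Dusp6 and Etv5 did not pass.

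**Figure D5:**
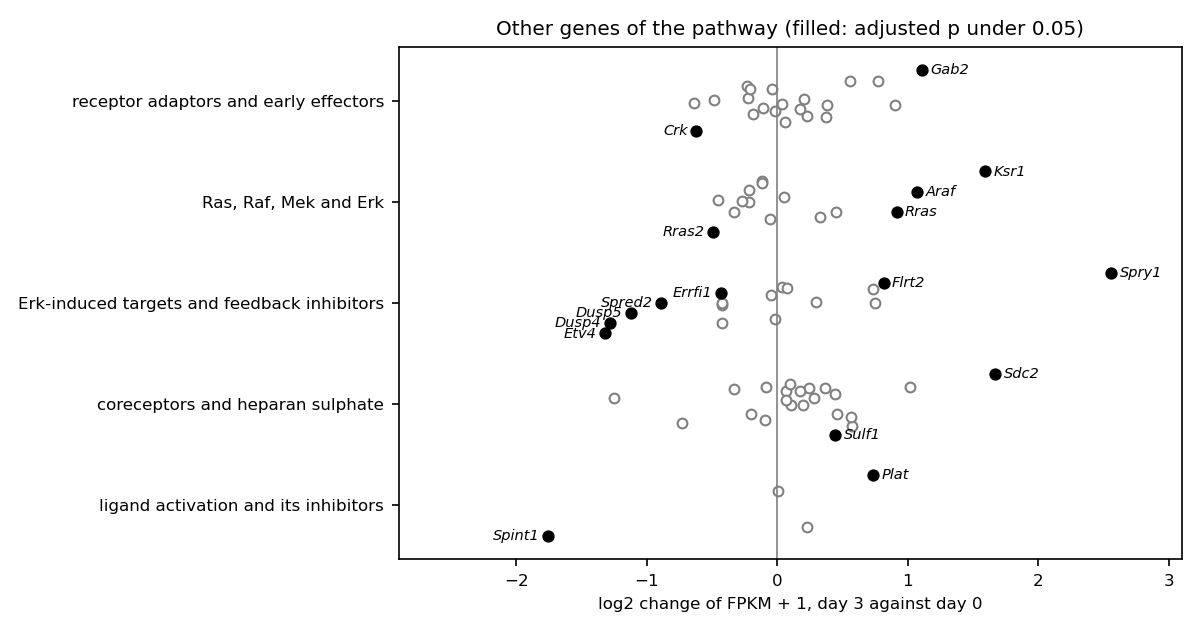
Log2 change from day 0 to day 3 for the tested genes of 5 lists of the pathway, with filled and named points where the limma adjusted p was under 0.05 and open points elsewhere (vertical spread within a list only separates points). Spry1 and Sdc2 lie farthest to the right (2.56 and 1.67) and Spint1 farthest to the left (-1.75).

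Among 22 tested coreceptors and heparan sulphate genes, 2 rose, the syndecan Sdc2 (1.67 ± 0.17, limma, adjusted p = 0.00019) and the extracellular sulphatase Sulf1 (0.44, adjusted p = 0.0308), and the median of the list was 0.18. Gpc1, a glypican, was the most abundant of them, with a mean of 2099 FPKM. Kl and Klb, the Klotho coreceptors of the endocrine Fgfs, were at 0 in 6 libraries each. Among 4 tested genes of ligand activation, the protease inhibitor Spint1 fell (-1.75, limma, adjusted p = 0.0379) and the protease Plat rose (0.73, adjusted p = 0.0425). Spint1 blocks the proteases that activate pro-Hgf, and Plat is a plasminogen activator. Hgfac, a protease that activates pro-Hgf, reached at most 1.46 FPKM.

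No gene of these 5 lists passed the limma test between siKlf5 and siCtrl. At an unadjusted p under 0.05 there was 1 receptor adaptor gene, 2 of the Ras to Erk genes, 1 Erk target, 5 of the 22 coreceptor genes and 0 ligand activation genes, against 9.9% of all transcripts. Limma-voom called 1 Ras to Erk gene and 1 coreceptor gene (Fgfbp1), both lower, against 1.25% of all transcripts. Map2k1, a Mek gene picked out after its values were seen, had the estimate largest in size of the Ras to Erk list. It was -0.46 (limma, unadjusted p = 0.0025, adjusted p = 0.223). Map2k1 was lower in siKlf5 than in siCtrl cells on every day, as were 9.03% of all transcripts, with 222.6 against 382.2 FPKM on day 0 and 337 against 399.5 on day 3. For the 2 most abundant genes of each list, the estimated differences on the log2 scale were 0.0029 for Ptpn11 and 0.12 for Shc1 among the adaptors, -0.21 for Rras2 and -0.08 for Rras, -0.24 for Dusp4 and -0.40 for Errfi1 among the Erk targets, 0.04 for Gpc1 and -0.28 for Cd44 among the coreceptors, and -0.20 for Plau and 0.04 for Furin. Fgfbp1, a secreted carrier of Fgfs, had the largest difference among the tested coreceptor genes and was picked out after its values were seen. It passed the filter on low values only through its siCtrl libraries, so its difference is a description and supports nothing. It measured 4.68, 4.57, 16.4 and 23.3 FPKM on days 0 to 3 in siCtrl cells and 0.94, 0, 0 and 0 in siKlf5 cells, so that the 2 groups of 4 libraries did not overlap, as for 1.06% of all transcripts.

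Other genes moved with day beside the members. All 9 proliferation genes fell from day 0 to day 3 (median -1.65, limma), and 7 of the 10 measured muscle genes rose (median 2.87), against 18% of all transcripts lower and 13% higher, which is also the background for the marker counts that follow. Of 11 fibro-adipogenic and adipocyte markers, 7 were tested, 4 rose, among them Dcn (3.19, a matrix proteoglycan) and Pi16 (3.30), and Pparg fell (-1.91), with a summed level of 1449 to 2074 FPKM that was mostly Ly6a (mean 1217 FPKM). Pi16 and Lum, which also rose, passed the filter on low values only through libraries after day 0, so their rises are descriptions. The adipocyte gene Plin1 was listed at 0 in all 8 libraries, and Dpp4 reached at most 0.098 FPKM and Adipoq 3.81. Of 7 pericyte and smooth muscle markers, 4 were tested and 3 rose, of which Abcc9 passed the filter only through libraries after day 0. Their sum of 1477 to 2829 FPKM was mostly Des, which muscle cells also express (mean 1845 FPKM), followed by Notch3, while the pericyte marker Rgs5 was listed at 0 in all libraries and Myh11 reached at most 1.02 FPKM. Pdgfra and Pdgfrb, which also mark such cells, are described above. The part of other cell types in these results was not tested.

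Endothelial and blood cell markers were scarce. Endothelial markers summed to at most 27.1 FPKM (siCtrl, day 3), and 3 of 8 were tested. Cldn5 was called higher on day 3, but it passed the filter only through its later libraries, so this is a description. It was at 0 in both day 0 libraries and at 20.4 (siCtrl) and 2.37 FPKM (siKlf5) on day 3. Tie1 was listed at 0, and Pecam1, Cdh5 and Kdr reached at most 0.83 FPKM. Of the macrophage and leukocyte markers, 8 of 9 were measured and 4 tested. They summed to at most 85.7 FPKM, mostly Lyz2, and Ptprc reached at most 0.71 FPKM and Csf1r 1.39. Of 6 Schwann and neural markers, 2 were tested and Tubb3 fell (-0.96). It made up nearly all of their sum (278 to 707 FPKM), and Sox10 reached at most 1.13 FPKM.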

How the data were processed

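Poly(A) RNA of C2C12 cells was sequenced in 8 libraries. The 6 ChIP-seq samples of the series are not analysed here. As far as the labels and the file header tell, the authors mapped read pairs to mm9 using STAR, and HOMER then counted reads of either strand on RefSeq exons, capped at 3 per position, for 1 transcript of each gene. The deposited FPKM values use a matrix total of 10000000 for each library. The 8 deposited log2 columns of per-sample values were not used.

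FPKM times exon length gave whole reads (all 3278 to 3711 low values examined in a library were within 0.1 of a whole number), 7850497 to 20301505 per library. Transcripts with 6 reads outnumbered those with 5 by 4.15 to 10.5 times, so exact 95% Clopper-Pearson intervals used reads divided by 6. They cover counting error only and belong to the plain ratio.

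Transcripts with a mean FPKM of at least 1 were tested with limma 3.58.1 (trend, R 4.3.3) on log2(FPKM + 1), with day and siRNA as terms and 3 residual degrees of freedom, and p-values were adjusted by Benjamini-Hochberg over 14312 transcripts. Day served as the block. Single days had no test and used the 1.5-fold cutoff of the study. Results were recomputed with other pseudocounts, filters, scalings and cutoffs, with limma-voom on the recovered reads, without the block and with each day's pair left out. The fit was also run on simulated data, and no result of that run is used here.

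Members were taken by symbol, but these gene families and the lists were chosen with earlier results of these data known. Members with a mean of at least 10 FPKM or called in a limma contrast are given in every library (Fgfr3, called on day 2, among them), and in each list up to 4 called genes with the largest changes, or the 2 most abundant genes where none was called. Further called genes of a list and the marker genes named were chosen after their values were seen. 2 genes of the lists are not reported here and were left out of the counts. Upstream sequences were read from the mm9 genome and were searched on both strands for CCNCNCCC, the E-box CANNTG and TGATGNAA.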

Additional observations from a re-analysis of the deposited data

Results flagged for a closer look

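Of the 20 tested members, Fgfrl1, Fgf5 and Fgf7 were flagged. Their log2 changes from day 0 to day 3 had opposite signs in siCtrl and siKlf5 cells, with 1 library per point. The siKlf5 changes of Fgfrl1 and Fgf7 were small, and the share of all transcripts with opposite signs was not counted. The log2 change of Fgfrl1 was 1.48 in siCtrl cells and -0.12 in siKlf5 cells. That of Fgf5 was -0.43 in siCtrl cells and 2.19 in siKlf5 cells, and that of Fgf7 was 1.03 and -0.14. These differences between the series were not tested. Fgfrl1 rested on 473 and 1380 reads in the siCtrl libraries and on 308 and 283 in the siKlf5 libraries of days 0 and 3, Fgf5 on 108 and 82 and on 55 and 267, and Fgf7 on 10 and 27 and on 40 and 36.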

How the results depend on the processing

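Calls of members between siKlf5 and siCtrl (0) were the same under every alternative tried except limma-voom, which gave 2, Fgfrl1 (-1.09, adjusted p = 0.0258) and Fgfr3 (-1.91, adjusted p = 0.026). Among all transcripts the 10 calls became 0 with no filter, 229 with limma-voom (50 higher, 179 lower), 0 without the replicate block by day and 0 to 0 with any day's pair left out. From day 0 to day 3, the 9 members called became 2 with no filter and 3 to 10 with the day 1 or day 2 pair left out. The low end was without day 2, where Fgfr1, Pdgfa, Pdgfrb, Fgf21, Pdgfd and Fgf13 lost their calls with the same estimates. The high end was without day 1, which also left fewer residual degrees of freedom than the main fit. Of all transcripts 4444 were called, and 2143 with no filter. The split of 1865 higher and 2579 lower became 2228 and 1910 with median-ratio scaling and 2150 and 1996 with upper-quartile scaling. Fgf13 also lost its call with a pseudocount of 0.1 (adjusted p = 0.0771), and Fgfr3 gained one under both scalings, with limma-voom and without day 1. Limma-voom also called Pdgfra (1.26, adjusted p = 0.008) and Fgfrl1 (0.95, adjusted p = 0.0205) and lost Pdgfa (-0.35, adjusted p = 0.155). No called estimate changed direction. In siCtrl cells alone and in siKlf5 cells alone, 6 of the 20 estimates of the change to day 3 moved by more than their standard error (Pdgfrb, Fgf11, Fgfrl1, Hgf, Fgf5 and Fgf13), and Fgfrl1, Fgf5 and Fgf7 took opposite signs. The 7 members past 1.5-fold became 4 (day 0, mean FPKM of 5 or more), 12 on day 3 with no filter, and 3, 3 and 2 on days 0, 1 and 2 with a 2-fold cutoff. The causes of these changes were not tested. Depth limited the low members most, since Fgf2, Fgf1, Fgf10 and the siKlf5 values of Fgfr3 rested on at most 44 reads per library.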
